A study of Homo sapiens with 6 samples.

Results

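The genes described here encode the shared machinery by which a T-lineage cell receives interleukin-7 and its relatives. They were chosen by name, with earlier results of these data known. They are the receptor chains IL7R, IL2RA, IL2RB, IL2RG and IL4R, the Janus kinases JAK1 and JAK3, the transcription factor STAT5B, and the STAT5-induced inhibitors SOCS2 and CISH. These 10 of the 19699 genes named on the array had 13 of its 57176 probes. Expression was measured in RPMI-8402, a human cell line long established from T-cell acute lymphoblastic leukaemia, transduced with lentivirus for a control short hairpin RNA (control), a hairpin against GATA3 (shGATA3) or a hairpin against TCF7, which encodes the protein TCF1 (shTCF1). In all groups EGFP-positive cells were sorted after 48 h. Each of the 3 groups had 2 arrays, which the study describes as independent experiments in this single cell line, and no array held untransduced cells. The comparisons address how expression in these leukaemia cells differs when a T-lineage transcription factor is targeted.

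Cytokines of this family signal through receptors that share the common gamma chain, the product of IL2RG. IL7R pairs with it to bind interleukin-7, which developing T cells need to survive and divide. IL2RA and IL2RB pair with it for interleukin-2, IL2RB serves interleukin-15 as well, and IL4R binds interleukin-4. JAK1 sits on the ligand-specific chain and JAK3 on the common gamma chain. Together they phosphorylate STAT5A and STAT5B, which move to the nucleus and switch on targets that include CISH and SOCS2, whose products damp the same receptors. GATA3 and TCF1 are DNA-binding proteins that drive early T-cell development.

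The promoters of 3 of these genes are shown because each holds a word of the kind that STAT5 or a GATA factor binds. RefSeq promoter windows (GRCh38.p14, 250 bases before to 50 after the start of transcription) were found for 8 of the 10 genes, and JAK1 had 3 of the 10 windows. They were searched on both strands for the STAT5 spacing motif TTCNNNGAA, which reads the same on either strand, for GATA words (AGATAA or else AGATAG or else TGATAA or else TGATAG), and for TCF/LEF words (CTTTGAA or else CTTTGAT). The 250 bases before the start are printed 5′ to 3′ on the strand of the gene, with matching words in capitals, for CISH (chr3:50611775-50612024, minus strand), IL7R (chr5:35856641-35856890, plus strand) and JAK3 (chr19:17847983-17848232, minus strand).
CISH: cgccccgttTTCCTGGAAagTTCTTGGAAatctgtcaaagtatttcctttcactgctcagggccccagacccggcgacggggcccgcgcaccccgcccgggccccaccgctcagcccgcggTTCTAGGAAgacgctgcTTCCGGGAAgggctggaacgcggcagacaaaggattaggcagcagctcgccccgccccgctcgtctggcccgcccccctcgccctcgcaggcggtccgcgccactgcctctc
IL7R: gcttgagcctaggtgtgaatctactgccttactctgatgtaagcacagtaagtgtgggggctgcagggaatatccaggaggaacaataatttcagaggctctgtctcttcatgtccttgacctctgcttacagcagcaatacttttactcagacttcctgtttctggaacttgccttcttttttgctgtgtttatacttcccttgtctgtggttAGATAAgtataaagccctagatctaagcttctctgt
JAK3: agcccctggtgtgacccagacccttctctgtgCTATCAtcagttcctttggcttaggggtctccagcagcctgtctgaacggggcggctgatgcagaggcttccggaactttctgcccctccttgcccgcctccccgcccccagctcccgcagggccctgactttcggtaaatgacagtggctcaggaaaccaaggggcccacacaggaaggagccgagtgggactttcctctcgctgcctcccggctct

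CISH held 4 STAT5 spacing words, which began 241, 230, 129 and 112 bases before the start. Of all 35116 windows, 7.66% held at least 1 such word and 7 windows held 4 or more. The IL7R promoter had 1 GATA word on its own strand, 36 bases before the start, and the JAK3 promoter had 1 on the opposite strand, 218 bases before it. The first start of JAK1 had 2 GATA words just after the start, and none of its windows had another word. GATA words occurred in 25% of all windows and TCF/LEF words in 6.86%. No word of the 3 kinds overlapped another, no window of these genes held a TCF/LEF word, and 4 of the 8 genes (IL2RA, IL2RG, IL4R and STAT5B) had no word of any kind. A match is a description of letters and not a bound site.

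**Figure D1:**
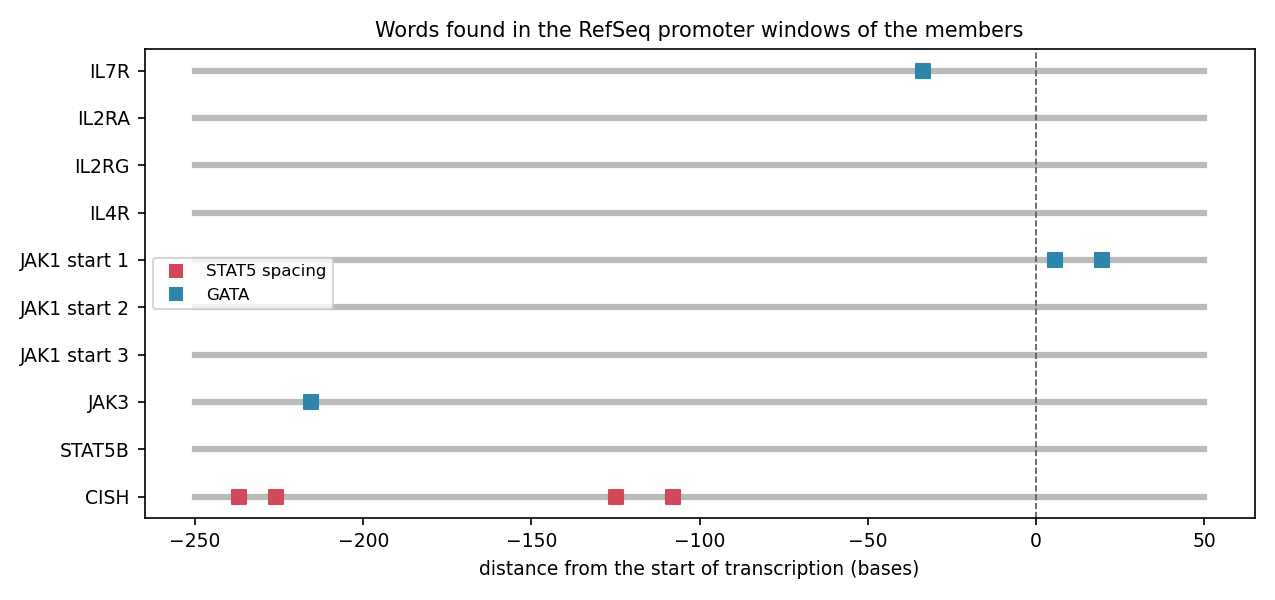
Words found in the RefSeq promoter windows of 8 genes (rows, JAK1 with 3 starts), by their distance in bases from the start of transcription (dashed line); squares mark a word of the STAT5 spacing motif or of the GATA kind. The 4 words of CISH are of the STAT5 kind, and the other 4 words are of the GATA kind.

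All levels below are log2 intensities after variance stabilizing normalization, which brings the arrays to a shared scale. Well above background a difference of 1 is a doubling of the signal. Near background the scale is compressed, so a fold given for a dim gene is not an exact ratio of signals. The 2 arrays of a group correlated at 0.993 to 0.994 over the probes tested. The share of probes above background was 51% to 56.2% per array. The 75th percentile of the unscaled intensity was 270 and 287 on the control arrays and 165 to 179 on the hairpin arrays. All arrays lay on 1 slide, with both control arrays in its second row and all hairpin arrays in its first, so row and hairpin cannot be told apart. The labels were checked against the targeted genes. GATA3 read 9.54 and 9.56 on the control arrays, 9.46 and 9.55 on the shGATA3 arrays and 9.76 and 9.9 on the shTCF1 arrays. It was thus not detectably lower in the arrays labelled shGATA3 (log2 difference -0.05 ± 0.1 SE, adjusted p = 0.795 by limma), and every difference drawn from those arrays is given by that label. The brighter of 2 probes of TCF7 read 13.96 and 13.91 on the control arrays, 14.26 and 14.27 on the shGATA3 arrays and 12.58 and 12.68 on the shTCF1 arrays. TCF7 thus fell on the shTCF1 arrays by 1.31 (SE 0.1, adjusted p = 0.00393 by limma). Of 12 T-lineage leukaemia markers, 10 were above background on all 6 arrays, while LMO2 was not above background on any. Of 7 NK markers NCAM1 and NKG7 were above background on all 6 arrays and 4 on none. On the log2 scale the summed signal of the T-lineage markers was 16.36 to 16.41 on the control arrays, 16.98 to 17.15 on the shGATA3 arrays and 16.38 to 16.63 on the shTCF1 arrays. That of the NK markers was 11.04 to 11.1, 11.1 to 11.27 and 10.9 to 11.05 in the same order. Some single markers moved more than the sum of their list, and others less. A sum weighs its brightest markers most, CD3D for T-lineage (group means 15.13, 15.95 and 15.16) and NKG7 for NK (10.88, 10.78 and 10.85). The CD3D rise of 0.81 with shGATA3 was not called (adjusted p = 0.138 by limma). NCAM1, an NK surface molecule, rose with shGATA3 by 1.43 (adjusted p = 0.00442 by limma) and fell with shTCF1 by 0.79 (0.0129), with a direct difference of 2.23 (0.000977). These values are of its probe A_33_P3363799, while its probes A_23_P1740 and A_33_P3363804 were not above background on any array. NKG7, the other NK marker tested, was called in neither comparison with control (-0.1 and -0.02). Of 11 tested T-lineage markers, 2 were called higher and 1 lower with shGATA3, and 1 higher and 2 lower with shTCF1. As a share this was 27.3% in each comparison, beside 6.84% and 16.9% of all probes tested. CD2, a T-cell adhesion molecule, fell with shGATA3 by 0.47 (adjusted p = 0.0439 by limma) and with shTCF1 by 2.19 (0.00199). DNTT and LMO1 rose with shGATA3 by 0.73 (0.0262) and 0.8 (0.0135). With shTCF1 CD3G rose by 0.63 (0.037) and RAG1, above background on the control arrays alone, fell by 1.43 (0.032). Of the 5 myeloid markers on the array CD14, ITGAM and MPO were above background on all 6 arrays, and the summed signal of the 5 was 8.1 to 8.32. The part of these shifts in the results below was not tested.

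A trio of receptor chains moved on both kinds of hairpin array, IL2RG upwards and IL2RB and IL4R downwards, while the kinases, STAT5B and the inhibitors moved little or in 1 group. A gene was called at a Benjamini-Hochberg adjusted p below 0.05 in limma over all 31134 probes tested, and 8 of the 10 genes could be tested. With 2 arrays against 2, an exact two-sided permutation test of a single gene cannot go below p = 0.333. In the shGATA3 arrays against control, 3 of 8 were called, 1 higher and 2 lower, where 6.84% of all probes were called, 2.88% higher and 3.96% lower. In the shTCF1 arrays against control, 4 of 8 were called, 1 higher and 3 lower, where 16.9% of all probes were called, 7.21% higher and 9.73% lower. Directly between the hairpins, 1 of 8 was called, higher in the shGATA3 arrays, where 6.18% of all probes were called, 3.58% higher and 2.6% lower. The median log2 difference of the 8 genes was 0, -0.28 and 0.01 in these comparisons, beside -0.011, -0.019 and -0.004 over all probes. The median size, regardless of sign, was 0.12, 0.41 and 0.27, beside 0.2, 0.25 and 0.19 over all probes. Over all probes tested, the arrays of the 2 groups did not overlap for 60.2%, 66.9% and 52% in these comparisons. A lack of overlap, given below for single genes, was therefore common. Both comparisons with control use the same 2 control arrays. In sorted bulk cells, fewer cells with a transcript and less of it per cell cannot be told apart.

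**Figure D2:**
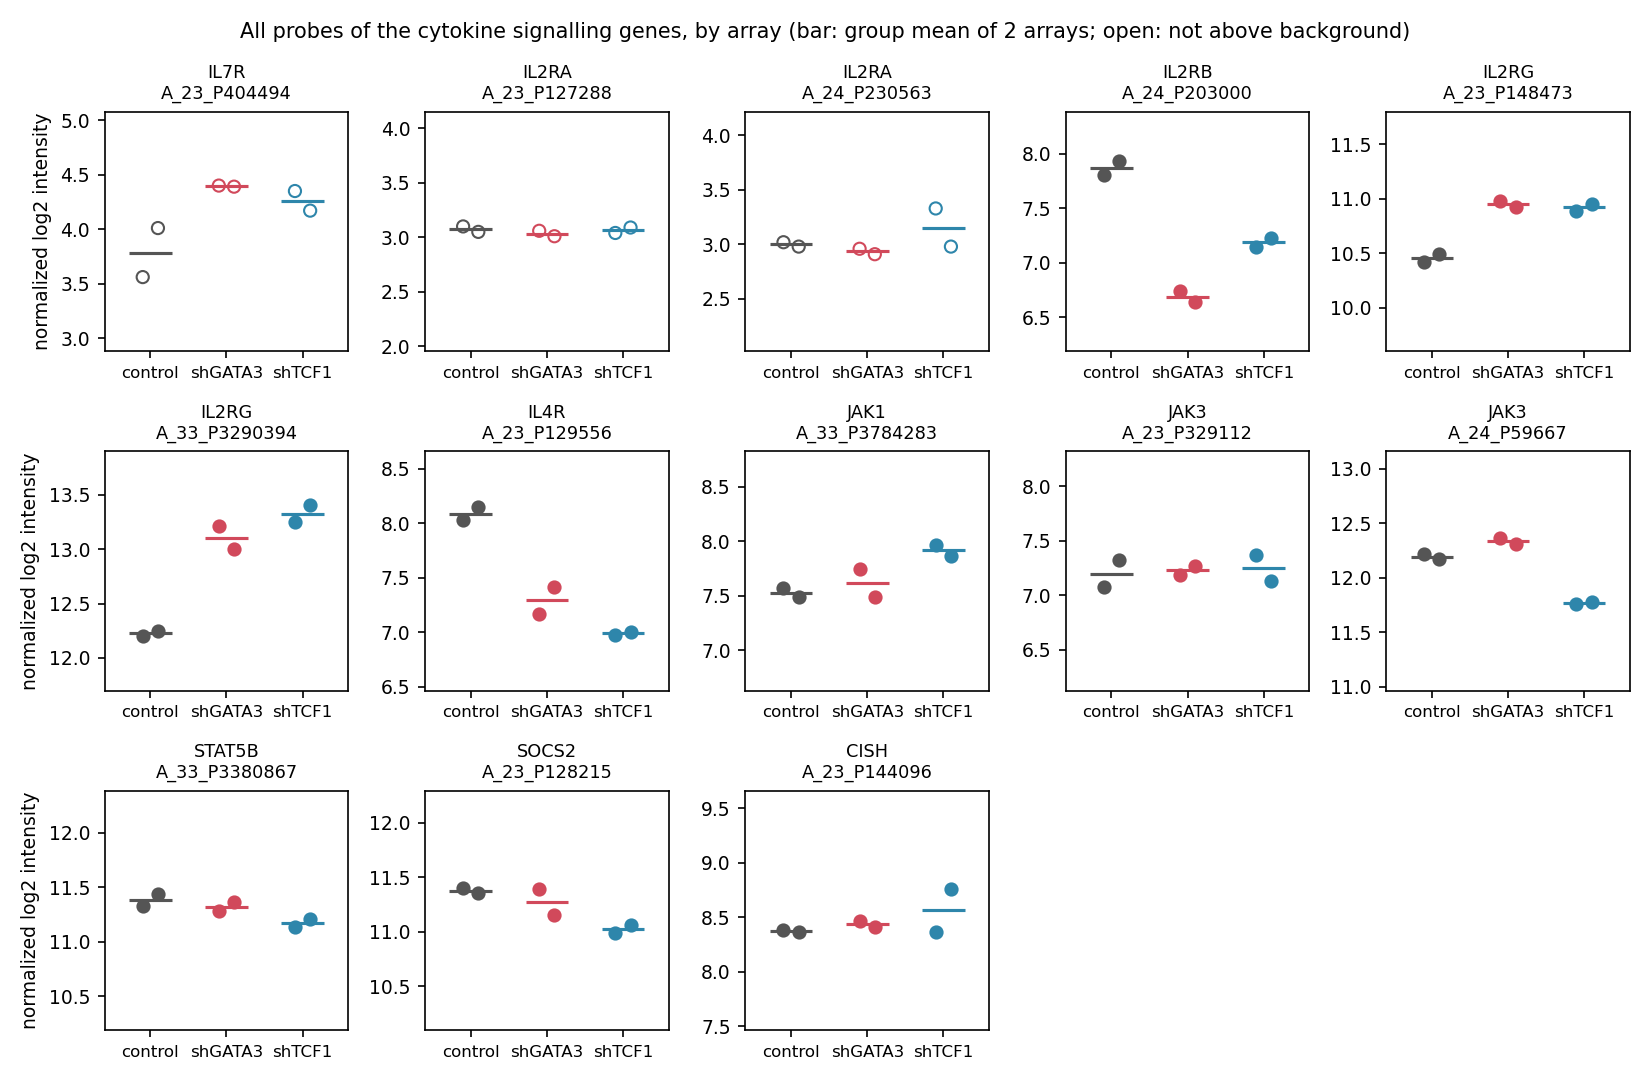
Normalized log2 intensity (vertical axis, each panel spanning 2.2 units) of the 13 probes on each of the 6 arrays, grouped as control, shGATA3 and shTCF1 (horizontal axis); points are arrays, bars are means of 2 arrays, and open points are probes not above background on any array. The IL2RB and IL4R points of both hairpins lie below control, and those of both IL2RG probes lie above it.

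IL2RB, the signalling chain for interleukin-2 and interleukin-15, had the largest fall from control on the arrays labelled shGATA3 among the 8 genes. Its probe A_24_P203000 read 7.81 and 7.94 on the control arrays, 6.74 and 6.64 on the shGATA3 arrays and 7.15 and 7.23 on the shTCF1 arrays. Control was the highest group, shGATA3 the lowest, and no 2 groups overlapped. Against control the gene was 2.27-fold lower with shGATA3 (log2 difference -1.18 ± 0.11 SE, adjusted p = 0.00582 by limma), a size that 1.96% of all probes tested exceeded. It was 1.61-fold lower with shTCF1 (-0.68 ± 0.11, adjusted p = 0.0149 by limma). With normexp background correction the shGATA3 difference of IL2RB was smaller, -0.82. The direct difference between the hairpins, -0.50 (95% interval -0.76 to -0.24), missed the threshold (adjusted p = 0.0536 by limma), which it passed with an intensity trend in the spread (0.0278). The fall with shGATA3 was called with each of the 6 arrays left out in turn. The fall with shTCF1 lost its call without control replicate 1 (adjusted p = 0.0666 by limma), control replicate 2 (0.082), shTCF1 replicate 1 (0.0638) or shTCF1 replicate 2 (0.0511).

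IL2RG, the common gamma chain itself, rose on both kinds of hairpin array, and both of its probes gave that direction. The brighter probe, A_33_P3290394, read 12.2 and 12.25 on the control arrays, 13.21 and 13 on the shGATA3 arrays and 13.25 and 13.4 on the shTCF1 arrays. All 4 hairpin arrays were above both control arrays. The gene was 1.84-fold higher with shGATA3 (log2 difference 0.88 ± 0.12 SE, adjusted p = 0.0174 by limma) and 2.14-fold higher with shTCF1 (1.1 ± 0.12, adjusted p = 0.00723 by limma). The second probe, A_23_P148473, read 10.42 and 10.49, then 10.98 and 10.92, then 10.89 and 10.95 in the same order of groups. It showed smaller rises, of 0.5 with shGATA3 (adjusted p = 0.0416 by limma) and 0.47 with shTCF1 (adjusted p = 0.0296 by limma). The hairpins did not differ detectably from each other, by -0.22 (95% interval -0.52 to 0.07) on the brighter probe and 0.03 (-0.21 to 0.27) on the other. On the brighter probe the rise with shTCF1 was called with each array left out in turn. The rise of IL2RG with shGATA3 lost its call without control replicate 1 (adjusted p = 0.0998 by limma), control replicate 2 (0.0677), shGATA3 replicate 1 (0.0579) or shGATA3 replicate 2 (0.0504).

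IL4R, the chain that binds interleukin-4, fell on both kinds of hairpin array. Its probe A_23_P129556 read 8.03 and 8.15 on the control arrays, 7.17 and 7.42 on the shGATA3 arrays and 6.98 and 7.0 on the shTCF1 arrays. Control was again the highest group and shTCF1 the lowest. The gene was 1.74-fold lower with shGATA3 (log2 difference -0.8 ± 0.12 SE, adjusted p = 0.0232 by limma) and 2.15-fold lower with shTCF1 (-1.1 ± 0.12, adjusted p = 0.00744 by limma). The direct difference of 0.31 (95% interval 0 to 0.61) missed the threshold (adjusted p = 0.209 by limma). The fall with shTCF1 was called with each array left out in turn. With normexp the shGATA3 difference of IL4R was -0.529. The fall of IL4R with shGATA3 lost its call without control replicate 1 (adjusted p = 0.0959 by limma), control replicate 2 (0.102), shGATA3 replicate 1 (0.0636) or shGATA3 replicate 2 (0.0503).

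IL7R and IL2RA, the chains particular to interleukin-7 and to high-affinity interleukin-2 binding, were not well above background on any of the 6 arrays and could not be tested. The IL7R probe A_23_P404494 read 3.56 and 4.01 on the control arrays, 4.4 and 4.39 on the shGATA3 arrays and 4.35 and 4.17 on the shTCF1 arrays. The dimmest probes well above background read 4.09 to 4.3, depending on the array. The IL7R values on the shGATA3 arrays and on shTCF1 replicate 1 exceeded that lowest level of their own array, but the scanner marked none of them as well above background, and no order of the groups is read from them. The IL2RA probes read 3.01 to 3.1 (A_23_P127288) and 2.91 to 3.33 (A_24_P230563) over the 6 arrays. The GATA word in the IL7R promoter therefore stands beside a gene whose level these arrays did not measure.

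JAK3, the kinase that docks on the common gamma chain, differed between the hairpins on 1 of its 2 probes. The brighter probe, A_24_P59667, read 12.22 and 12.17 on the control arrays, 12.37 and 12.31 on the shGATA3 arrays and 11.76 and 11.78 on the shTCF1 arrays. The shTCF1 arrays were the lowest, and JAK3 was 1.34-fold lower there than in control (log2 difference -0.43 ± 0.1 SE, adjusted p = 0.0356 by limma). With shGATA3 it differed from control by 0.14 ± 0.1 (adjusted p = 0.397 by limma). Directly, it was higher with shGATA3 than with shTCF1 by 0.57 ± 0.1 (adjusted p = 0.0285 by limma). The second probe, A_23_P329112, read 7.08 and 7.32, then 7.19 and 7.27, then 7.37 and 7.13. Its groups overlapped, and its differences of 0.03, 0.04 and -0.02 were far from the threshold (adjusted p = 0.919, 0.844 and 0.96 by limma). Both probes carry the same RefSeq transcript accession, and which part of the transcript each reads was not analysed here. With the mean of both probes neither JAK3 difference was called (-0.192 and 0.275, adjusted p = 0.229 and 0.174 by limma). On the brighter probe the fall of JAK3 with shTCF1 lost its call without control replicate 1 (adjusted p = 0.185 by limma), control replicate 2 (0.136), shTCF1 replicate 1 (0.112) or shTCF1 replicate 2 (0.0945). The direct difference of JAK3 lost its call without any 1 of the 6 arrays, with adjusted p from 0.0729 to 0.0972 by limma.

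JAK1, the partner kinase, was not called in any comparison. Its probe A_33_P3784283 read 7.57 and 7.49 on the control arrays, 7.75 and 7.49 on the shGATA3 arrays and 7.97 and 7.87 on the shTCF1 arrays. The shGATA3 arrays overlapped control, while both shTCF1 arrays were above it. The difference from control was 0.09 (95% interval -0.21 to 0.4) with shGATA3 and 0.39 (0.08 to 0.7) with shTCF1, at adjusted p = 0.676 and 0.083 by limma. The shTCF1 difference of JAK1 passed the threshold with an intensity trend in the spread (adjusted p = 0.047 by limma) and with normexp background correction (0.00919).

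STAT5B, one of the closely related pair of STAT5 factors, varied little. Its probe A_33_P3380867 read 11.33 and 11.44 on the control arrays, 11.28 and 11.37 on the shGATA3 arrays and 11.14 and 11.21 on the shTCF1 arrays. Only the shTCF1 arrays lay apart from control, on the low side. The differences from control were -0.06 (95% interval -0.31 to 0.19, adjusted p = 0.742 by limma) and -0.21 (-0.46 to 0.04, adjusted p = 0.201). The intervals exclude a halving or a doubling of STAT5B in either group, on this scale.

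The STAT5-induced inhibitors were not called in any comparison. The SOCS2 probe A_23_P128215 read 11.4 and 11.35 on the control arrays, 11.39 and 11.15 on the shGATA3 arrays and 10.99 and 11.06 on the shTCF1 arrays. Both shTCF1 arrays lay below all others, but the difference of -0.35 (95% interval -0.64 to -0.06) missed the threshold (adjusted p = 0.0941 by limma). That difference of SOCS2 passed it with an intensity trend (adjusted p = 0.0323 by limma) and with normexp (0.0274). The CISH probe A_23_P144096 read 8.38 and 8.37 on the control arrays, 8.47 and 8.41 on the shGATA3 arrays and 8.37 and 8.76 on the shTCF1 arrays. CISH thus gave nearly 1 value on 5 of the 6 arrays and stood higher on shTCF1 replicate 2. Its differences from control were 0.07 (95% interval -0.29 to 0.43) and 0.19 (-0.17 to 0.55), at adjusted p = 0.807 and 0.388 by limma. The gene whose promoter holds 4 STAT5 spacing words was therefore among those with no detectable difference.

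**Figure D3:**
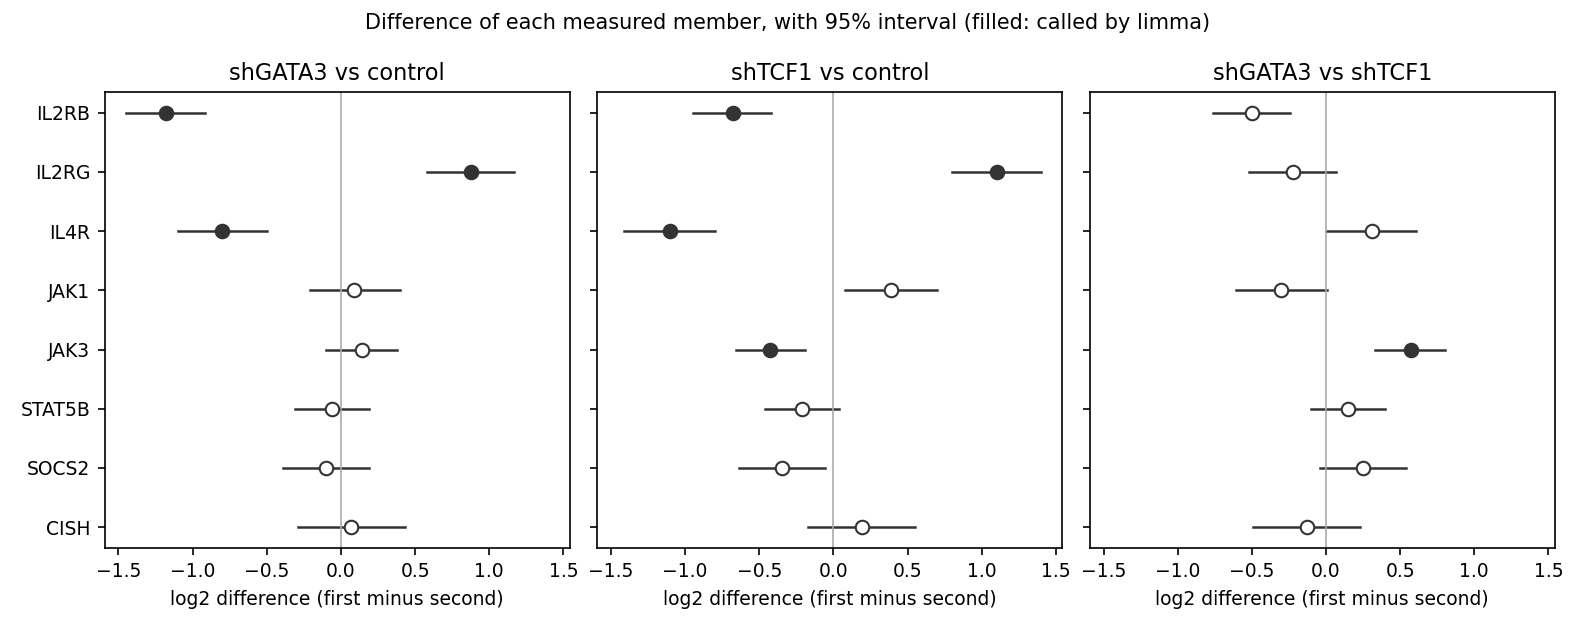
Log2 difference (horizontal axis, first group minus second) of the 8 tested genes (rows) in the 3 comparisons, with the 95% interval of the limma fit; filled points were called at an adjusted p below 0.05. IL2RB, IL2RG and IL4R are filled in both comparisons with control and JAK3 in those that involve shTCF1.

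The side-by-side view of settings shows how firmly each of these 4 genes was called. IL2RB with shGATA3, and IL2RG and IL4R with shTCF1, stayed called under every setting plotted, whereas the other calls crossed the threshold when an array was left out.

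**Figure D4:**
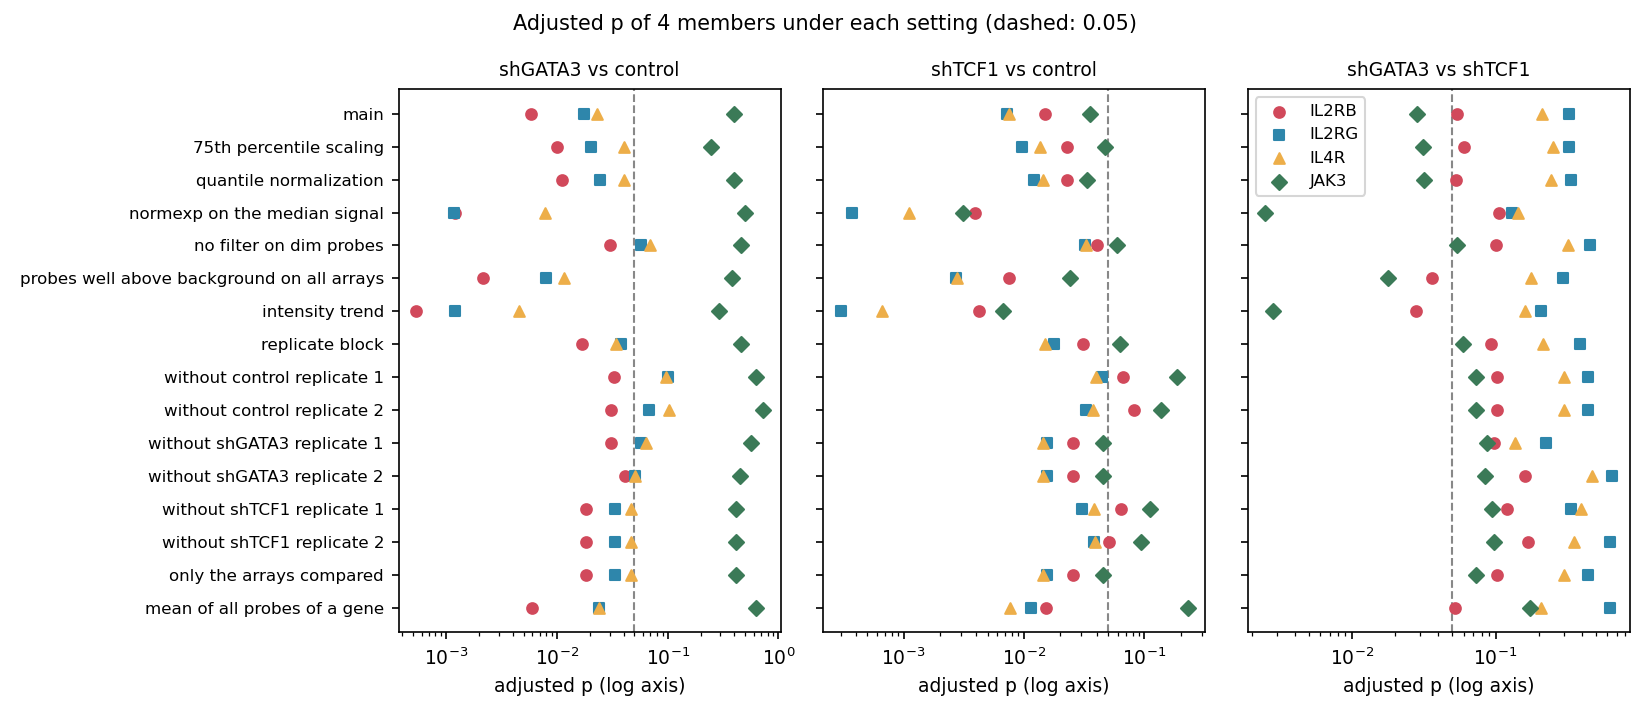
Adjusted p of limma (horizontal log axis, dashed line at 0.05) of IL2RB, IL2RG, IL4R and JAK3 in the 3 comparisons, under each setting (rows) except the deposited matrix of values. In the left panel the IL2RB points all lie left of the line, and in the middle panel so do those of IL2RG and IL4R.

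Other genes of the pathway were taken by role from a list of 54, of which 44 could be tested. In the shGATA3 arrays against control 5 of 44 were called, 2 higher and 3 lower. In the shTCF1 arrays against control 16 were called, 6 higher and 10 lower, and directly 10 were called, 5 in each direction. As shares these were 11.4%, 36.4% and 22.7%, beside the 6.84%, 16.9% and 6.18% of all probes given above. The list was chosen with earlier results of these data known, and it counts the brightest tested probe of each gene. The shares are therefore a description and not a test. Their median log2 differences were -0.08, -0.04 and 0.06.

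**Figure D5:**
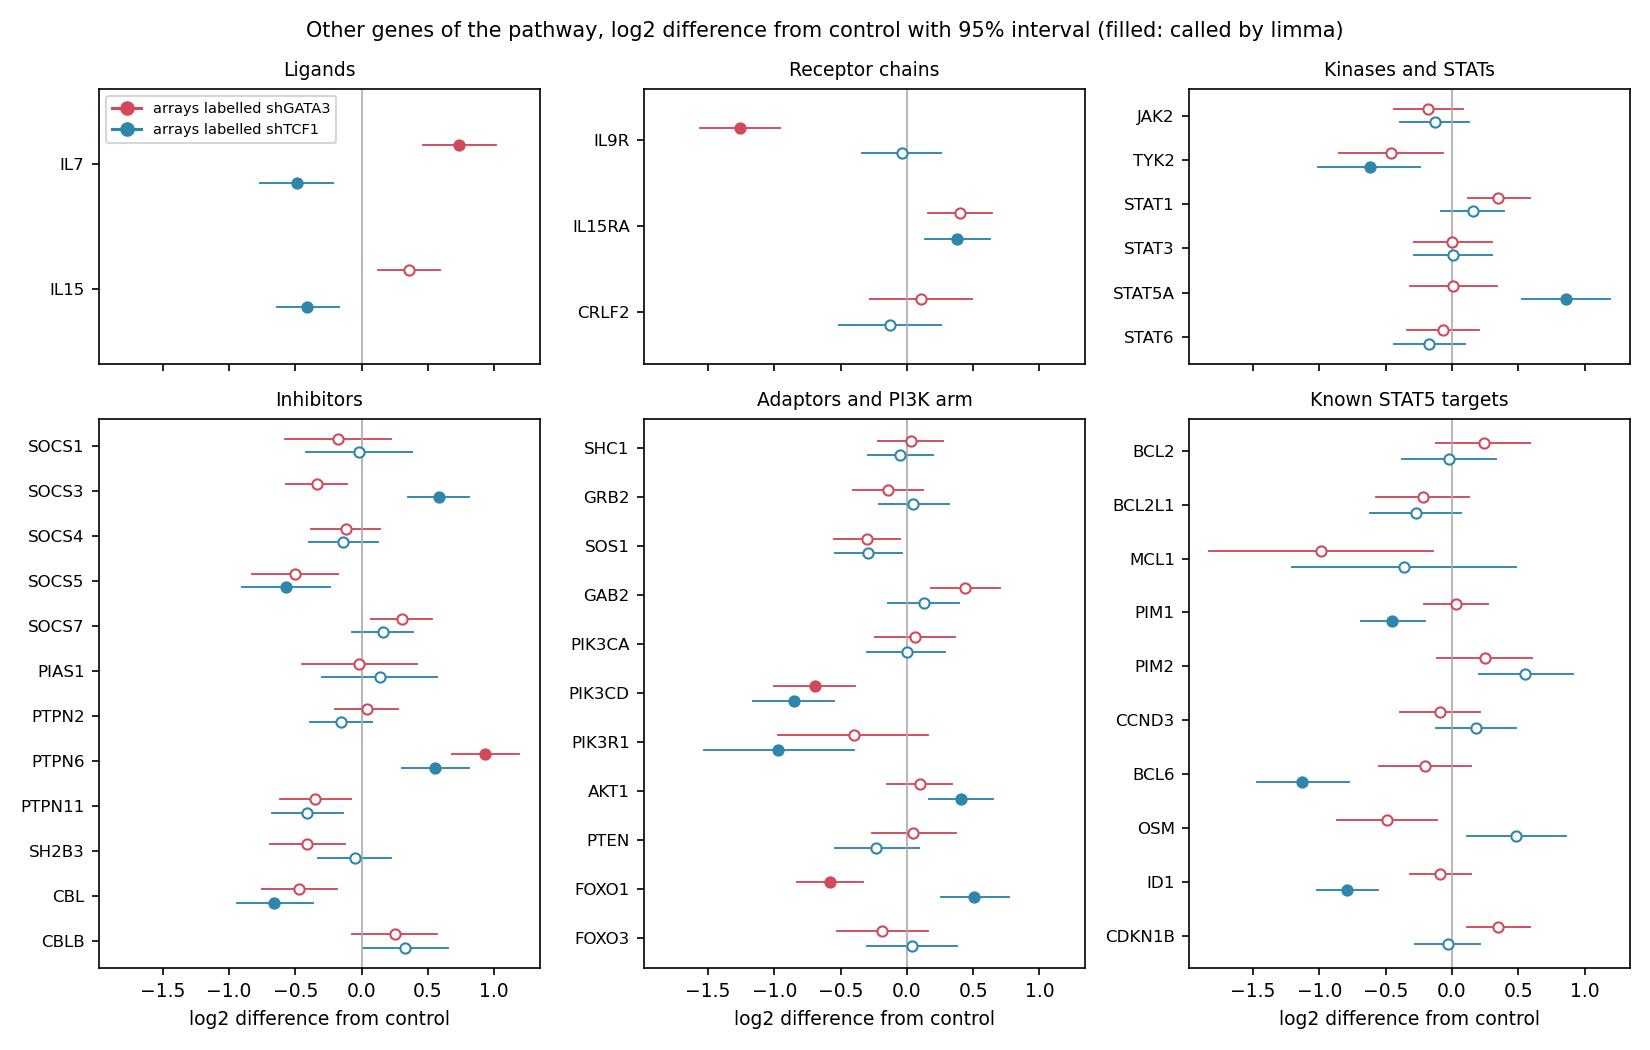
Log2 difference from control (horizontal axis) of the 44 tested pathway genes (rows), by role, for the arrays labelled shGATA3 and shTCF1, with the 95% interval of the limma fit; filled points were called. IL7 and FOXO1 are filled on opposite sides of 0 for the 2 hairpins, and PIK3CD and PTPN6 on the same side.

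Of 8 ligand genes only IL7 and IL15 could be tested, and both differed between the hairpins. Of these 2, 1 was called with shGATA3, 2 with shTCF1 and 2 directly, where 6.84%, 16.9% and 6.18% of all probes were called. IL7, the cytokine itself, read 5.28 and 5.2 on the control arrays, 6.06 and 5.89 on the shGATA3 arrays and 4.69 and 4.81 on the shTCF1 arrays. The groups were fully ordered, with shGATA3 highest and shTCF1 lowest. IL7 rose with shGATA3 by 0.73 ± 0.11 SE (adjusted p = 0.0223 by limma) and fell with shTCF1 (-0.49 ± 0.11, adjusted p = 0.0366), though the latter was called with only 1 of 3 other scalings. Directly it was 2.34-fold higher with shGATA3 (log2 difference 1.23, adjusted p = 0.00412 by limma), a call kept with each array left out. With normexp the same IL7 differences were smaller, 0.327 with shGATA3, -0.193 with shTCF1 and 0.521 directly. IL15 read 7.72 and 7.66, then 8.01 and 8.08, then 7.27 and 7.3. It was 1.7-fold higher with shGATA3 than with shTCF1 (log2 difference 0.76, adjusted p = 0.0117 by limma) and lower with shTCF1 than in control (-0.41, adjusted p = 0.0409, or -0.259 with normexp).

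Among 5 further receptor chains 3 could be tested, and 1 was called in each comparison (33.3%, beside 6.84%, 16.9% and 6.18% of all probes). IL9R, which pairs with the common gamma chain for interleukin-9, had the largest difference. It read 9.55 and 9.3 on the control arrays, 8.22 and 8.12 on the shGATA3 arrays and 9.35 and 9.43 on the shTCF1 arrays. IL9R was low on the shGATA3 arrays alone, 2.39-fold below control (log2 difference -1.26 ± 0.12 SE, adjusted p = 0.00722 by limma) and 2.33-fold below shTCF1 (-1.22, adjusted p = 0.00582). With shTCF1 it differed from control by -0.04 (95% interval -0.34 to 0.26). Both of its calls were kept with each array left out in turn. The probes of IL15RA, which presents interleukin-15, disagreed with shTCF1: A_33_P3399263 rose by 0.38 (adjusted p = 0.049 by limma) and A_23_P138680 fell by 0.45 (adjusted p = 0.0349).

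Of 6 further kinases and STATs, 0 were called with shGATA3, STAT5A and TYK2 with shTCF1, and STAT5A directly. As shares these were 0%, 33.3% and 16.7%, beside 6.84%, 16.9% and 6.18% of all probes. STAT5A read 11.76 and 11.81 on the control arrays, 11.96 and 11.63 on the shGATA3 arrays and 12.67 and 12.62 on the shTCF1 arrays. It stood out on the shTCF1 arrays alone, 1.82-fold above control (log2 difference 0.86 ± 0.14 SE, adjusted p = 0.0149 by limma) and 1.8-fold above shGATA3 (adjusted p = 0.0238). STAT5A and STAT5B are near-identical neighbours, and how far each probe reads the other transcript was not tested. TYK2, a Janus kinase of other receptors, fell with shTCF1 (log2 difference -0.62, adjusted p = 0.0475 by limma).

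Of 12 tested inhibitors, 1 was called with shGATA3 and 4 with shTCF1 (8.33% and 33.3%, beside 6.84% and 16.9% of all probes). PTPN6, the gene of the phosphatase SHP-1 that acts on Janus kinases, read 8.11 and 8.09 on the control arrays, 8.95 and 9.1 on the shGATA3 arrays and 8.63 and 8.68 on the shTCF1 arrays. It rose in both, 1.91-fold (adjusted p = 0.00994 by limma) and 1.47-fold (adjusted p = 0.0225). SOCS3, a feedback inhibitor of cytokine receptors, read 9.05 and 9.1, then 8.72 and 8.76, then 9.66 and 9.66. SOCS3 rose 1.5-fold with shTCF1 (adjusted p = 0.016 by limma) and was 1.89-fold lower with shGATA3 than with shTCF1 (adjusted p = 0.0061). SOCS5 fell with shTCF1 by 0.57 (adjusted p = 0.0395 by limma), and CBL, a ubiquitin ligase for receptors and kinases, fell by 0.66 (0.0191). PTPN11, the gene of SHP-2, was not called on its brighter probe (-0.41 with shTCF1, adjusted p = 0.0551 by limma) but was on the dimmer one (-1.28, adjusted p = 0.019).

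Of 11 genes of adaptors and the phosphoinositide 3-kinase arm, 2 were called with shGATA3 and 4 with shTCF1. As shares these were 18.2% and 36.4%, beside 6.84% and 16.9% of all probes. FOXO1 is a transcription factor that the phosphoinositide 3-kinase arm holds out of the nucleus and that activates IL7R in T cells. It read 7.74 and 7.78 on the control arrays, 7.16 and 7.2 on the shGATA3 arrays and 8.2 and 8.35 on the shTCF1 arrays. It moved in opposite directions, down with shGATA3 (log2 difference -0.58 ± 0.1 SE, adjusted p = 0.0334 by limma) and up with shTCF1 (0.51 ± 0.1, adjusted p = 0.0274). The direct difference of FOXO1 was -1.09 (adjusted p = 0.00476 by limma) and was called with each array left out. PIK3CD, the leukocyte catalytic subunit, fell in both, by 0.69 with shGATA3 (adjusted p = 0.0336 by limma) and 0.85 with shTCF1 (0.0126). Its dimmer probe, A_33_P3353941, was called in neither, at -0.41 (adjusted p = 0.29 by limma) and -0.68 (0.0847). The regulatory subunit PIK3R1 fell with shTCF1 by 0.97 (adjusted p = 0.041 by limma), where its 2 arrays read 8.21 and 8.88 against 9.52 and 9.51 in control, and its difference was -0.632 without shTCF1 replicate 1 (0.091). AKT1, the kinase downstream, rose with shTCF1 by 0.41 (adjusted p = 0.0426 by limma).

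Of 10 tested genes known as STAT5 targets, 0 were called with shGATA3 against control by limma, 3 fell with shTCF1, and 4 differed between the hairpins. As shares these were 0%, 30% and 40%, beside 6.84%, 16.9% and 6.18% of all probes. With shGATA3, 3 of the 10 had an unadjusted p below 0.05 by limma, as had 8257 of all 31134 probes tested. BCL6, a repressor, read 5.63 and 5.83 on the control arrays, 5.38 and 5.67 on the shGATA3 arrays and 4.55 and 4.65 on the shTCF1 arrays, 1 of which was above background. With its level near background on the shTCF1 arrays, the size of the BCL6 difference depended on the scaling. It fell with shTCF1 by 1.13 (adjusted p = 0.00931 by limma), with a difference of -0.415 under normexp (0.00726). It was higher with shGATA3 than with shTCF1 by 0.93 (0.02 by limma), or by 0.361 with normexp (0.0228). PIM1, a survival kinase, read 10.68 and 10.79, then 10.77 and 10.76, then 10.28 and 10.3, and fell with shTCF1 by 0.45 (adjusted p = 0.0339 by limma). ID1, an inhibitor of E proteins, read 7.83 and 7.78, then 7.71 and 7.72, then 7.0 and 7.03, and fell with shTCF1 by 0.79 (adjusted p = 0.00839 by limma), with a difference of -0.511 under normexp. PIM1 and ID1 were also higher with shGATA3 than with shTCF1, by 0.47 (adjusted p = 0.0491 by limma) and 0.7 (0.0141). OSM, the cytokine oncostatin M, was lower with shGATA3 than with shTCF1 by 0.97 (adjusted p = 0.0231 by limma), with a difference of -0.59 under normexp. The genes of this group were not sorted by whether STAT5 raises or lowers them. CISH and SOCS2, described above, were not counted in it.

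Leaving out 1 array at a time thinned these pathway calls. Of the 5 called with shGATA3 only IL9R was kept throughout, of the 16 with shTCF1 only BCL6, whose level there was near background, and of the 10 direct calls FOXO1, IL7, IL9R and SOCS3. For the others, the highest adjusted p by limma without an array was 0.0632 to 0.178, 0.059 to 0.222 and 0.0605 to 0.142 in these comparisons. With shTCF1 the calls of IL7, IL15, TYK2, SOCS5, PIK3R1 and PIM1 did not hold under all 3 other scalings, and nor did the direct call of PIM1.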

How the data were processed

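The data are 6 custom 1-colour Agilent arrays, 2 for each of 3 groups taken from the sample titles. The 10 genes and the lists of pathway genes, markers and promoter words were chosen with earlier results of these data known. Every one of the 10 genes is named with all its probes, and other pathway genes are named where called in at least 1 comparison. Cy3-labelled cRNA was made by the authors from 100 ng of RNA. The deposited scanner files hold background-subtracted intensity values and local background intensities, from Feature Extraction 10.7.1.1 per the file headers (the submitters' processing notes name version 9.1). A second deposited table gives the authors' log2 values, which the methods describe as VSN-normalized. Its control replicate 2 column correlated at only 0.759 with its array, and the columns of control replicate 1, shGATA3 replicate 1 and shGATA3 replicate 2 correlated best with the other array of their group (0.998, 0.998 and 0.987, against 0.992, 0.991 and 0.986 with their own). It therefore served only as an alternative, with columns taken by their names.

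Control spots and 71 probes with outlier spots were left out, and spots of a probe were averaged. Intensities were normalized by the VSN model, rewritten in R 4.3.3 (trimming quantile 0.9, 7 iterations, 5 strata). Probes were tested where at least 1 group had both arrays well above background (31134, of which 27332 were above it on all 6 arrays) with limma 3.58.1 (lmFit, eBayes, two-sided) in 1 fit over 6 arrays, with 3 residual and 2.97 prior degrees of freedom. Benjamini-Hochberg adjustment ran over all tested probes. The script was tested on simulated data. Where a gene had several tested probes, the brightest on average stands for it in counts. Probes were named by accession through a RefSeq table (GRCh38.p14), whose coordinates are given for promoter windows alone because the arrays' design names another build. No spot was saturated, and the number of arrays limits the precision. Alternatives were other scalings, filters, spread models, a replicate block, the mean of all probes and each array left out. Same-numbered arrays deviated together by r = -0.04, -0.01 and 0.05, so the numbers were not taken as pairs. The results of 2 further marker lists are not reported here.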

Additional observations from a re-analysis of the deposited data

How the results depend on the processing

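The calls of IL2RB with shGATA3 and of IL2RG and IL4R with shTCF1 held under every alternative except the deposited matrix. Under that matrix 0 probes, 0 of the 10 genes and 0 pathway genes were called by limma in any comparison, with 1814, 2652 and 1642 probes at an unadjusted p below 0.05. Called differences that turned sign with it were IL2RB (0.222 with shGATA3 and 0.842 with shTCF1), JAK3 (3.08), IL9R (0.915), IL15 (0.301), IL15RA (-0.054), TYK2 (1.75), SOCS5 (0.111), CBL (2.36) and PIM1 (2.35), while IL15RA also turned to -0.031 with the mean of all probes. In that matrix 4 of the 6 columns did not follow best, or only loosely followed, the array they are named for, and the cause was not tested.

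In the shGATA3 arrays against control, 2130 probes, 3 of the 10 genes and 5 pathway genes were called. With normexp 4280 probes and 14 pathway genes were called, with an intensity trend 3912 and 13, and with a replicate block 1328 and 3. With no filter on dim probes 560 probes, 1 of the 10 genes and 2 pathway genes were called. Leaving out 1 array gave 437 to 1454 probes, 1 to 3 of the 10 genes and 1 to 4 pathway genes. In the shTCF1 arrays against control, 5274 probes, 4 of the 10 genes and 16 pathway genes were called. With no filter 2272 probes and 7 pathway genes were called, and with a replicate block 9 pathway genes. Leaving out 1 array gave 865 to 4930 probes, 2 to 4 of the 10 genes and 1 to 12 pathway genes. Between the hairpins, 1925 probes, 1 of the 10 genes and 10 pathway genes were called. With normexp 3281 probes were called, with an intensity trend 3273 probes and 2 of the 10 genes, with no filter 901 probes, 0 of the 10 genes and 6 pathway genes, and with only the arrays compared 1214 probes and 0 of the 10 genes. Probes above background on all arrays gave 2 of the 10 genes, the replicate block and the mean of all probes 0. Leaving out 1 array gave 701 to 1214 probes, 0 of the 10 genes and 4 to 9 pathway genes. With the replicate block the calls of JAK3 were lost (adjusted p = 0.063 with shTCF1 and 0.0597 between the hairpins, by limma), and no other call among the 10 genes.

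Higher calls made up 42.1% (shGATA3) and 42.6% (shTCF1) of those against control, but 53.6% and 54.8% with 75th percentile scaling and 53% and 53.3% with quantile normalization. A slide or scan block was not run because there was 1 slide and 1 scan. Signal over background limits IL7R and IL2RA, which have no measured difference here.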
